A study of Mus musculus with 9 samples.

Results

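The genes described here carry out homologous recombination repair, the Fanconi anaemia pathway and the S-phase checkpoint. They were chosen from a list of 39 gene symbols by function, and 37 of them had a value of their own among the 19938 genes measured. Xrcc2 and Rbbp8 had no probe set assigned to them alone and were not analysed here. Each gene was represented by the probe set with the highest mean signal over all arrays, and the members were grouped by what their proteins do.

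The samples were primary mouse embryonic fibroblasts, cells grown from mouse embryos, that differ in Rb1, which encodes the retinoblastoma protein. WT cells were Rb +/+, null cells were Rb -/-, and ∆G cells were Rb ∆G/∆G, homozygous for an allele that the study describes as mutated where the protein makes its common contact with E2F factors. All groups were serum deprived: cells were plated at low density in 15 cm dishes and put into 0.1% serum 24 h later to bring them to rest. Total RNA of 3 samples per genotype was hybridised to Affymetrix Mouse Gene 1.0 ST arrays, and the values are log2 signals made by RMA, a method that corrects background, normalises between arrays and summarises the probes of a gene. The series text describes the genotypes as paired by litter, but the labels name no separate embryos and give no litter for an array, so each p-value reflects how far these arrays scatter, and some of that scatter may be technical. Differences are given on the log2 scale with the standard error (SE) of the limma fit, n = 3 arrays per group. A gene was called where its limma p-value, adjusted by the Benjamini-Hochberg method over all 19938 genes, was below 0.05.

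Homologous recombination copies a broken stretch of DNA from the sister chromatid, which exists only once the DNA has been replicated, and the Fanconi pathway uses it to clear crosslinks that stall replication forks. The ATR and ATM kinases report stalled forks and breaks to CHK1 and CHK2, which hold the cell cycle. Many genes of these pathways are known targets of E2F factors, to which the retinoblastoma protein binds.

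Fibroblast genes such as Col1a1 and Col3a1 were strongly expressed on every array, the mean of 9 fibroblast markers being 10.9 to 11.6, whereas 9 macrophage, 5 epithelial and 4 endothelial markers had means of 5.58 to 7.16, 5.59 to 5.85 and 5.53 to 5.92. Means of 4 neural and 4 skeletal muscle markers were 6.71 to 7.07 and 6.05 to 6.50. Single markers were brighter: the macrophage genes Lyz2 and Cd68 ran from 6.25 and 6.80 on WT replicate 3 to 9.99 and 8.81 on ∆G replicate 1. The neural gene Map2 was at 9.28 to 9.86. The fibroblast means were 11.2 to 11.6 in WT, 11.3 to 11.4 in ∆G and 10.9 to 11.1 in null, and 6 of the 9 markers (Col1a1, Col1a2, Col3a1, Pdgfra, Pdgfrb and Thy1) were called lower in null than in WT, by log2 differences of -0.83 to -0.31. In ∆G limma called 0 of the 9, and 0 had an unadjusted p below 0.05. The part of this shift in the member differences was not tested. Rb1 itself stood at 8.93, 9.17 and 9.16 in WT, 9.53, 9.76 and 9.54 in ∆G and 8.18, 8.58 and 8.19 in null. It was lower in null than in WT by a log2 difference of -0.77 (SE 0.12, adjusted p = 0.00115), and its difference of 0.53 between ∆G and WT was not called (adjusted p = 0.0753), although it passed without null replicate 2 (adjusted p = 0.0295). Whether the Rb1 probes lie in the part removed in the null allele is not given in the sources used here. Array medians were 6.33 to 6.40. Xist, the transcript of the inactive X chromosome, was 11.4 to 12.0 on the 3 null arrays and WT replicate 3 and 4.24 to 4.45 on the other 5, where the Y-linked gene Eif2s3y was at 9.13 to 9.61. The ∆G and null arrays were therefore of opposite sex pattern throughout, and that difference cannot be told apart from the genotype when ∆G is set against null. A fit with the sex pattern as a term draws the sex effect from the WT arrays alone. Its null minus WT difference therefore sets the null arrays against WT replicate 3 only.

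Between null and WT, 31 of the 37 genes were called and all 31 were higher in null, which is 83.8% of the members against 18.4% of all genes called in either direction, 8.38% higher and 10.1% lower. The median difference of the members was 0.67, against -0.01 over all genes. In the comparison of ∆G with WT, 7 members were called and all 7 were higher in ∆G, a share of 18.9% where 0.813% of all genes were called, 0.602% higher and 0.211% lower. The 7 were Tipin, Chek1, Topbp1, Timeless, Brca2, Rad51c and Fancl, and all of them were also called in null against WT. The median difference of the members in ∆G was 0.23, against -0.02 over all genes, and 32 of the 37 differences lay above 0. It was 0.12 without ∆G replicate 3 and 0.32 without WT replicate 1. No member was lower in either mutant by the test, and 6 (Atr, Atrip, Eme1, Fancc, Fance and Mus81) were called in no comparison. Both comparisons use the same 3 WT arrays, so their values are given side by side and not as a measure of likeness. The shares over all genes given here also stand beside the counts by role that follow.

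**Figure D1:**
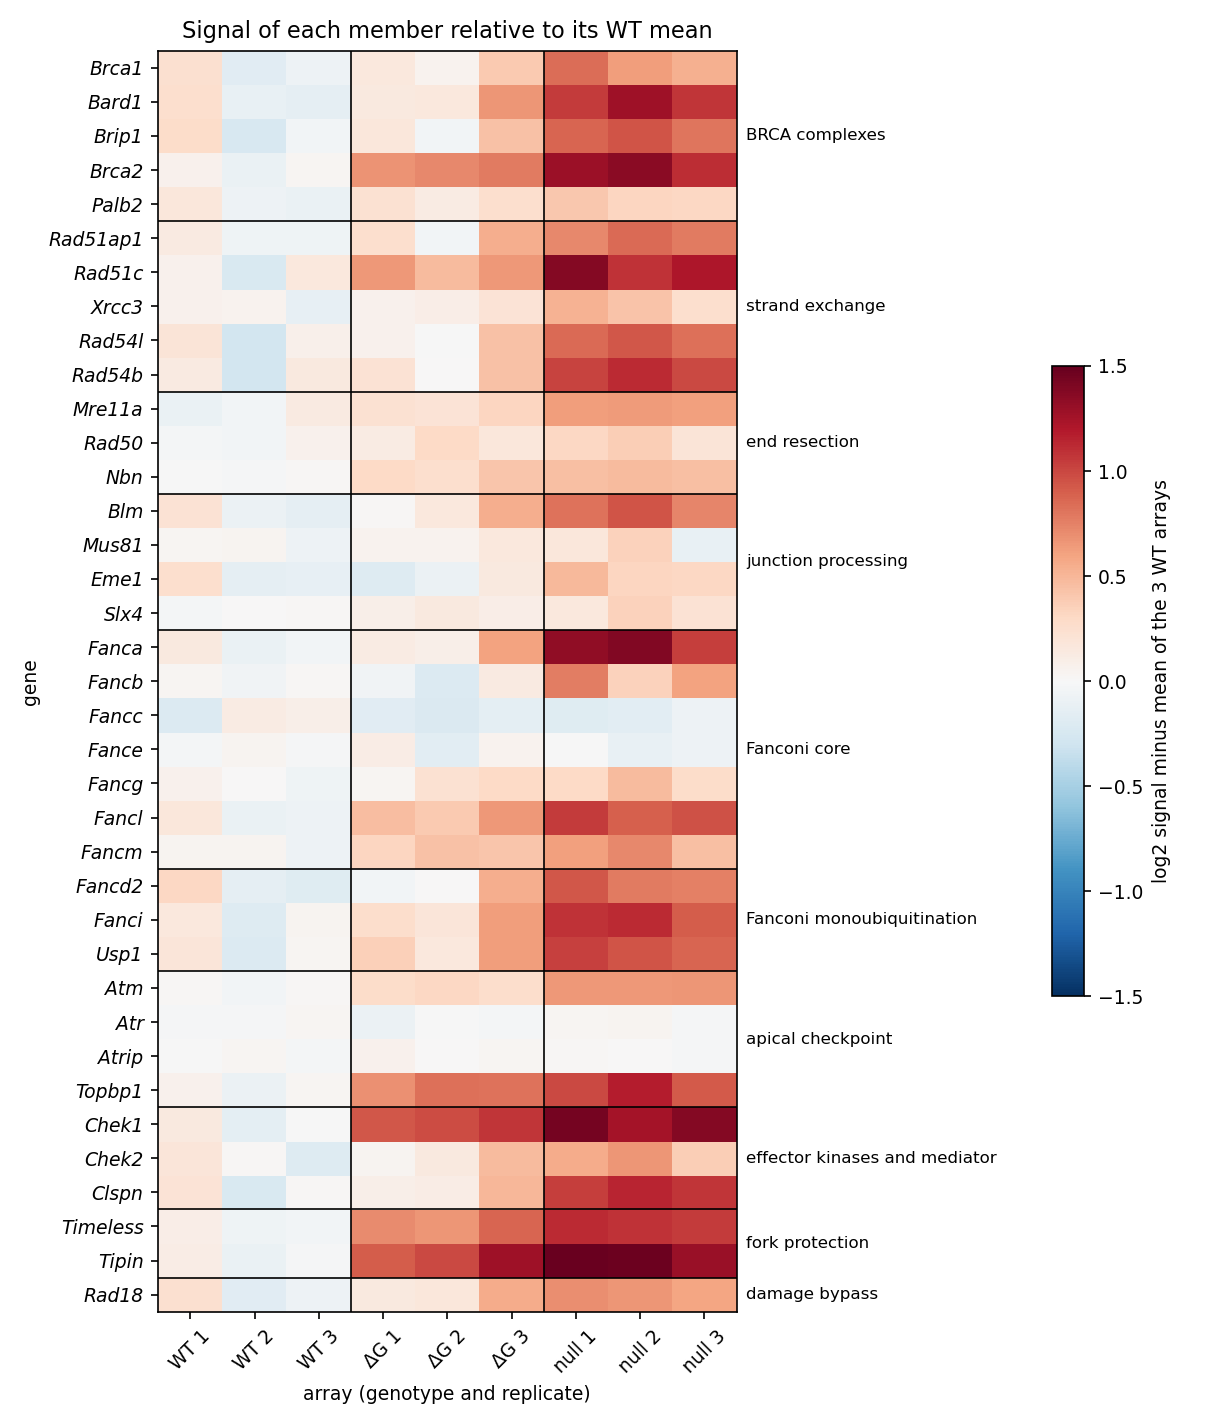
Log2 signal of the 37 measured genes (rows, by role) on each of the 9 arrays (columns), minus the mean of the 3 WT arrays of that gene. The 3 null columns are the highest for most rows, and ∆G replicate 3 is the highest ∆G array in 29 of 37 rows.

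The pair that protects the replication fork rose in both mutants. Tipin and Timeless encode the partners of a complex that travels with the fork and passes the stalling signal on to CHK1. Tipin stood at 7.54, 7.34 and 7.42 in WT, at 8.34, 8.43 and 8.70 in ∆G and at 8.92, 8.91 and 8.73 in null. The WT arrays lay well below all others, and ∆G replicate 3 came within the narrow gap below the lowest null array. Tipin rose 2.08-fold in ∆G (log2 difference 1.06, SE 0.10, adjusted p = 0.00127) and 2.68-fold in null (adjusted p = 1.4e-05). Timeless was at 6.21, 6.06 and 6.08 in WT, 6.83, 6.78 and 7.0 in ∆G and 7.23, 7.20 and 7.17 in null. Its 3 groups did not overlap. It rose 1.68-fold in ∆G (log2 difference 0.75, SE 0.08, adjusted p = 0.00159) and 2.12-fold in null (adjusted p = 1.4e-05).

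Among the kinases and the mediator that act on the signal, Chek1 rose in both mutants. Chek1 encodes CHK1, the kinase that slows origin firing and blocks mitosis when forks stall. Its signal was 7.39, 7.09 and 7.24 in WT, 8.18, 8.22 and 8.32 in ∆G and 8.68, 8.49 and 8.62 in null, again with 3 separate groups. It rose 1.99-fold in ∆G (log2 difference 1.00, SE 0.09, adjusted p = 0.0008) and 2.56-fold in null (adjusted p = 9.34e-06). Clspn encodes Claspin, the adaptor through which ATR reaches CHK1, and it was called in null but not in ∆G. Clspn was at 6.15, 5.71 and 5.97 in WT, 6.03, 6.06 and 6.44 in ∆G and 6.99, 7.08 and 7.02 in null. The ∆G arrays overlapped WT, and only the null arrays stood apart, with a 2.12-fold rise (log2 difference 1.08, SE 0.13, adjusted p = 0.000193). In ∆G the Clspn difference was 0.23 (adjusted p = 0.527), and 0.10 without ∆G replicate 3. Chek2, the kinase downstream of ATM, rose 1.44-fold in null (adjusted p = 0.0142). That call was lost without WT replicate 3, null replicate 1 or null replicate 2, with an adjusted p of up to 0.0557.

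The apical part of the checkpoint was split. Atm encodes the kinase that responds to double-strand breaks, Atr the kinase that responds to single-stranded DNA, Atrip the partner that brings ATR there, and Topbp1 the protein that switches ATR on. Topbp1 was at 8.85, 8.70 and 8.81 in WT, 9.48, 9.61 and 9.6 in ∆G and 9.77, 9.96 and 9.70 in null. It rose 1.71-fold in ∆G (log2 difference 0.78, SE 0.08, adjusted p = 0.00167) and 2.04-fold in null (adjusted p = 2.48e-05), and it was the only member called in both mutants but not between them. Atm measured 8.08, 8.02 and 8.07 in WT, 8.33, 8.36 and 8.32 in ∆G and 8.71, 8.71 and 8.71 in null. These groups did not overlap and the arrays within each were close together. Atm rose 1.58-fold in null (log2 difference 0.66, SE 0.06, adjusted p = 5.14e-05), and the ∆G difference of 0.28 was not called (adjusted p = 0.0677).

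Atr and Atrip, in contrast, stayed within a narrow band on all 9 arrays. Atr was at 7.57, 7.57 and 7.62 in WT, 7.50, 7.58 and 7.56 in ∆G and 7.62, 7.62 and 7.56 in null. Atrip was at 7.33, 7.37 and 7.30 in WT, 7.40, 7.33 and 7.37 in ∆G and 7.35, 7.34 and 7.32 in null. All 3 groups overlapped for both genes. For Atr the 95% interval of null minus WT ran from -0.12 to 0.15 and that of ∆G minus WT from -0.18 to 0.10. For Atrip the intervals were -0.13 to 0.14 and -0.11 to 0.17. A difference of the size seen for Topbp1 lies outside all 4 intervals.

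**Figure D2:**
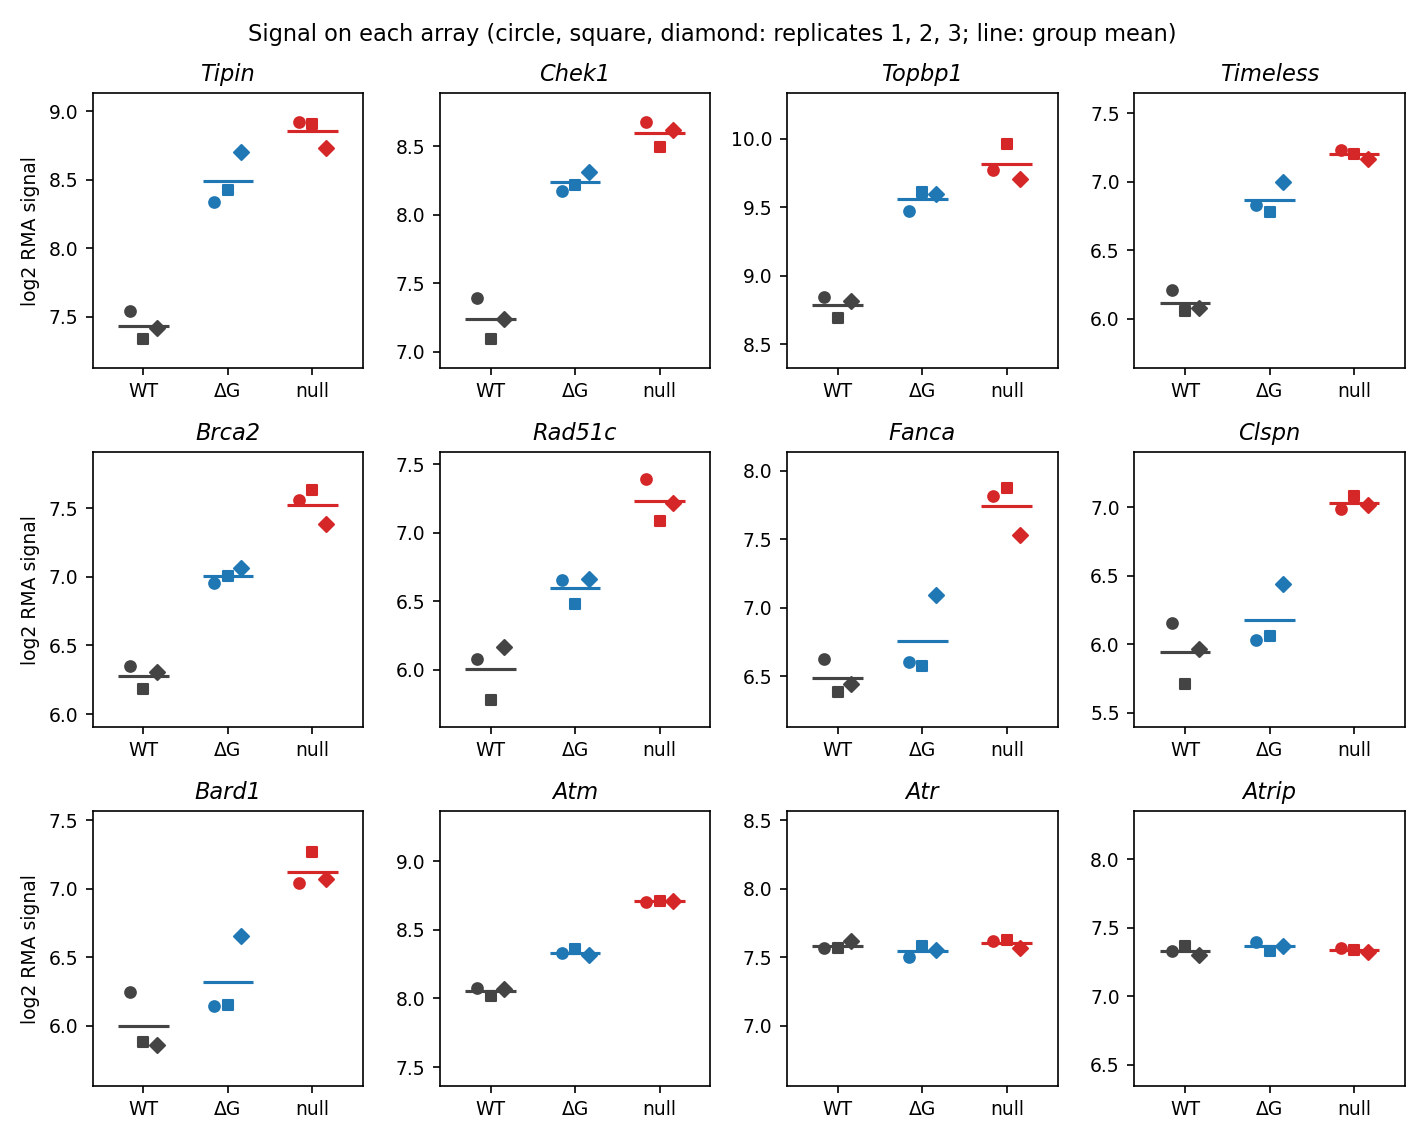
Log2 RMA signal of 12 members on every array, by genotype (circles, squares and diamonds are replicates 1, 2 and 3, lines are group means, and every panel spans 2 log2 units). Tipin, Chek1, Topbp1, Timeless, Brca2 and Rad51c are higher on all ∆G arrays than on all WT arrays, Fanca, Clspn and Bard1 overlap WT in ∆G, and the groups overlap for Atr and Atrip.

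The BRCA proteins prepare broken DNA for recombination, and all 5 genes of this role rose in null while 1, Brca2, also rose in ∆G. Brca2 encodes a large protein that acts at the resected ends. It was at 6.35, 6.18 and 6.31 in WT, 6.96, 7.01 and 7.06 in ∆G and 7.56, 7.63 and 7.39 in null. The steps between the groups were larger than the spread within any of them. Brca2 rose 1.66-fold in ∆G (log2 difference 0.73, SE 0.08, adjusted p = 0.00208) and 2.37-fold in null (log2 difference 1.25, adjusted p = 9.34e-06). Bard1, the obligate partner of BRCA1, was at 6.25, 5.88 and 5.86 in WT, 6.14, 6.15 and 6.65 in ∆G and 7.04, 7.26 and 7.07 in null. WT replicate 1 and ∆G replicate 3 were the high arrays of their groups, and WT and ∆G overlapped. Bard1 rose 2.19-fold in null (log2 difference 1.13, SE 0.15, adjusted p = 0.000367), and its ∆G difference of 0.32 was not called (adjusted p = 0.424). The other 2 probe sets of Bard1 had null differences of 0.85 and 0.57 and ∆G differences of 0.17 and 0.26.

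Brca1 encodes the ubiquitin ligase that promotes resection and joins BRCA2 through PALB2, and Brip1 its partner helicase. Brca1 was at 6.39, 5.97 and 6.07 in WT, 6.30, 6.20 and 6.53 in ∆G and 6.98, 6.77 and 6.68 in null. It rose 1.59-fold in null (adjusted p = 0.00347), whereas ∆G and WT overlapped (log2 difference 0.20, adjusted p = 0.585). Brip1 rose 1.83-fold in null (adjusted p = 0.00135). Palb2 rose 1.27-fold in null (adjusted p = 0.0143), a call lost without WT replicate 2, WT replicate 3 or null replicate 1, with an adjusted p of up to 0.0616.

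Of the 5 measured genes of strand exchange, all rose in null and 1, Rad51c, was called in ∆G. Rad51c was at 6.08, 5.78 and 6.17 in WT, 6.65, 6.48 and 6.66 in ∆G and 7.39, 7.09 and 7.22 in null. The 3 groups did not overlap. Rad51c rose 2.34-fold in null (log2 difference 1.22, adjusted p = 4.49e-05) and 1.51-fold in ∆G (log2 difference 0.59, SE 0.11, adjusted p = 0.038). The ∆G call was close to the threshold, and leaving out WT replicate 1 or 2, any ∆G array, or null replicate 1 or 3 ended it, with an adjusted p of up to 0.133 for differences of 0.48 to 0.65. Rad54b and Rad54l, motor proteins of strand exchange, rose 2.06-fold (adjusted p = 0.000265) and 1.83-fold (adjusted p = 0.00116) in null. Rad51ap1 rose 1.72-fold (adjusted p = 0.00143) and Xrcc3 rose 1.32-fold (adjusted p = 0.00868). None of these 4 was called in ∆G, where their differences were 0.12 to 0.25.

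In end resection and junction processing 5 of 7 measured genes rose in null and 0 were called in ∆G by limma, where 3 (Mre11a, Rad50 and Nbn) had an unadjusted p below 0.05. Over all genes, 18.4% were called in null and 0.813% in ∆G, and 2343 of 19938 had an unadjusted p below 0.05 in ∆G. Mre11a, Rad50 and Nbn encode the complex that recognises and trims broken ends. Mre11a was at 7.33, 7.40 and 7.57 in WT, 7.66, 7.64 and 7.75 in ∆G and 8.06, 8.08 and 8.04 in null. The groups did not overlap, and Mre11a rose 1.55-fold in null (adjusted p = 0.000263) while its ∆G difference of 0.25 was not called (adjusted p = 0.2). Nbn rose 1.37-fold in null (adjusted p = 0.000877) and its ∆G difference was 0.32 (adjusted p = 0.0568). A second, dimmer probe set of Nbn differed by 0.08 and 0.07, so the probe sets did not show the same size of change. Rad50 rose 1.22-fold in null (adjusted p = 0.0251). Its adjusted p was up to 0.0874 when WT replicate 1 or 2 or null replicate 1 or 2 was left out. With the sex pattern as a term the Rad50 call was also lost, at a difference of 0.22 against 0.29 in the main fit.

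Of the 4 genes that take joined DNA molecules apart, Blm, the Bloom syndrome helicase, rose 1.78-fold in null (adjusted p = 0.00147). Slx4, the scaffold of several nucleases, rose 1.18-fold in null (adjusted p = 0.0342). Its call was lost without any 1 of the WT arrays, ∆G replicate 1, null replicate 2 or null replicate 3. The adjusted p there was up to 0.117. The Slx4 call was also lost with the sex pattern as a term, at a difference of 0.22 against 0.24 in the main fit. Mus81 and Eme1 encode a nuclease that cuts such junctions. Mus81 differed by 0.14 between null and WT (95% interval -0.09 to 0.37). Eme1 was at 6.40, 6.01 and 6.02 in WT and 6.63, 6.46 and 6.45 in null, and its difference of 0.37 just missed the threshold (adjusted p = 0.051).

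The Fanconi core complex, which attaches ubiquitin to FANCD2 and FANCI, did not move as a block. Of its 7 measured genes 5 rose in null and 1, Fancl, was called in ∆G. Fanca, which encodes a subunit of the core, was at 6.63, 6.39 and 6.44 in WT, 6.61, 6.58 and 7.10 in ∆G and 7.82, 7.88 and 7.53 in null. Of the ∆G arrays, only replicate 3 lay above all WT arrays. Fanca rose 2.39-fold in null (log2 difference 1.25, SE 0.14, adjusted p = 0.00015), and its ∆G difference was 0.27 (adjusted p = 0.493), or 0.10 without ∆G replicate 3. Fancl, the ligase subunit, was at 6.39, 6.12 and 6.15 in WT, 6.68, 6.61 and 6.87 in ∆G and 7.26, 7.12 and 7.18 in null. It rose 1.96-fold in null (adjusted p = 6.5e-05) and 1.42-fold in ∆G (log2 difference 0.50, SE 0.10, adjusted p = 0.0383). The ∆G call of Fancl was lost without WT replicate 2 or 3, any ∆G array, or null replicate 1 or 3, with an adjusted p of up to 0.156.

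The other core genes divided into risers and genes near 0. Fancm, the motor that brings the complex to stalled forks, rose 1.51-fold in null (adjusted p = 0.000567), and its ∆G difference of 0.39 was not called (adjusted p = 0.0578). Fancb, an X-linked gene, rose 1.49-fold in null (adjusted p = 0.00434). WT replicate 3, which shares the Xist signal of the null arrays, had a Fancb level of 6.05, between 6.07 and 5.99 on the other WT arrays. With the sex pattern as a term in the fit, null is set against WT replicate 3 alone. The Fancb difference was then 0.56, against 0.57 in the main fit, and the call was lost. Fancg rose 1.27-fold in null (adjusted p = 0.0187), a call lost without WT replicate 2 or 3 or null replicate 2, with an adjusted p of up to 0.0715. The Fancg call was also lost with the sex pattern as a term, at a difference of 0.41 against 0.35 in the main fit. Fance and Fancc differed between null and WT by -0.06 (95% interval -0.24 to 0.11) and -0.14 (-0.34 to 0.06). They were the only members with a null mean below that of WT.

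The substrate pair of the core complex and the enzyme that resets it all rose in null. Fanci was at 5.92, 5.58 and 5.81 in WT, 6.03, 5.95 and 6.40 in ∆G and 6.86, 6.89 and 6.68 in null, a 2.05-fold rise in null (adjusted p = 0.000239). Usp1, the enzyme that removes ubiquitin from the pair, rose 1.93-fold (adjusted p = 0.000403). Fancd2 was at 6.26, 5.81 and 5.76 in WT, 5.90, 5.94 and 6.48 in ∆G and 6.87, 6.72 and 6.69 in null, and rose 1.77-fold in null (adjusted p = 0.00482). None of them was called in ∆G, where the differences were 0.36 for Fanci, 0.38 for Usp1 and 0.17 for Fancd2. Across the alternatives the ∆G difference was at least 0.22 for Fanci and 0.26 for Usp1. Without ∆G replicate 3 the ∆G difference of Fancd2 was -0.02. Rad18, a ubiquitin ligase that lets forks bypass damage, rose 1.57-fold in null (adjusted p = 0.00431), and its ∆G difference of 0.29 was not called (adjusted p = 0.391).

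**Figure D3:**
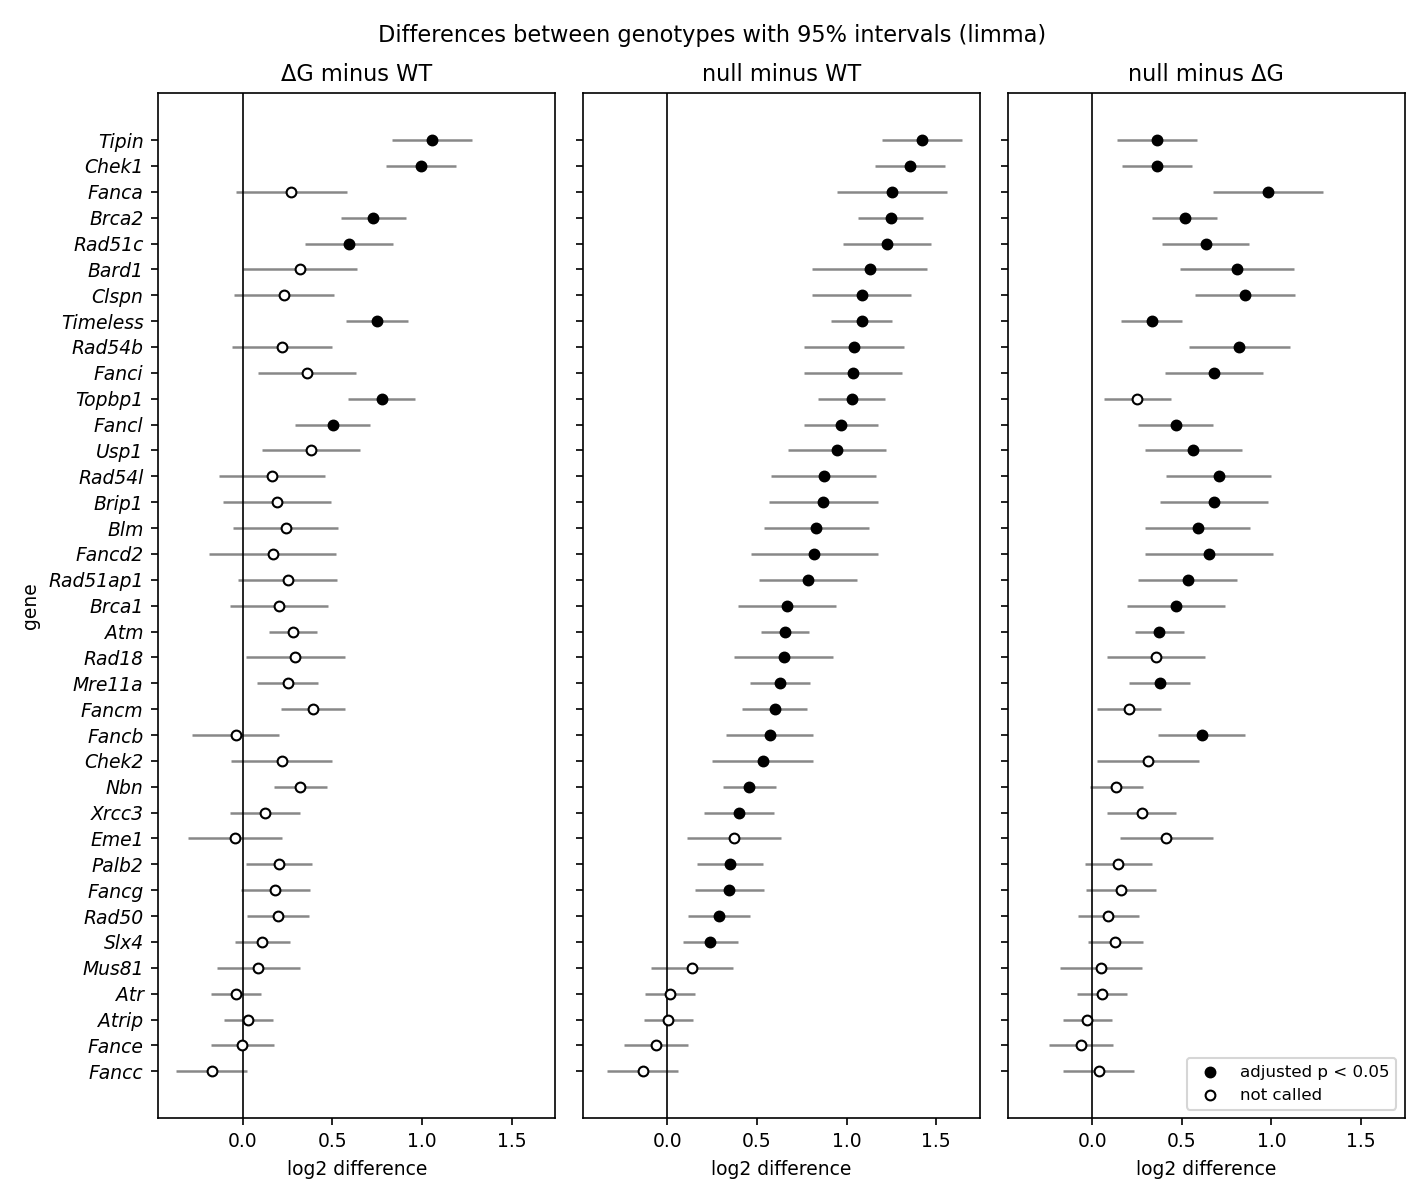
Log2 difference of each of the 37 genes with its 95% limma interval for ∆G minus WT, null minus WT and null minus ∆G, ordered by null minus WT (filled points have an adjusted p below 0.05). The 7 filled points of the first panel are Tipin, Chek1, Topbp1, Timeless, Brca2, Rad51c and Fancl, and the middle panel has 31.

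Set directly against ∆G, null was higher for 21 of the 37 genes and lower for none, 56.8% of the members against 8.71% of all genes called, 4.27% higher and 4.44% lower. The median member difference was 0.37, and 0.47 without ∆G replicate 3. The largest steps were in genes not called in ∆G against WT, where their differences were 0.22 to 0.32. Both comparisons use the same ∆G arrays, so among genes that rose in null a smaller ∆G difference goes with a larger step. Fanca was 1.97-fold higher in null than in ∆G (adjusted p = 0.00199), Clspn 1.81-fold (adjusted p = 0.00238), Rad54b 1.77-fold (adjusted p = 0.00304) and Bard1 1.75-fold (adjusted p = 0.00662). Brca2 (1.43-fold, adjusted p = 0.00337), Rad51c (1.55-fold, adjusted p = 0.00593) and Atm (1.30-fold, adjusted p = 0.00417) were also higher in null. Together with Rad54l, Fanci and Fancb, these 10 kept their call when any 1 array was left out.

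The calls of the other 11 genes depended on single arrays, and the count of members fell to 10 without ∆G replicate 2, to 11 without ∆G replicate 1 or null replicate 1, and rose to 24 without ∆G replicate 3. Over all genes the calls moved the same way, from 851 higher and 886 lower to 403 and 482 without ∆G replicate 2. They were 334 and 428 without ∆G replicate 1, 376 and 471 without null replicate 1, and 1230 and 1178 without ∆G replicate 3. Tipin (1.29-fold, adjusted p = 0.0488) lost its call without any 1 array other than ∆G replicate 3, with an adjusted p of up to 0.188. Brca1, Fancd2, Rad51ap1 and Timeless lost theirs without ∆G replicate 1 or 2 or any null array, with adjusted p-values of up to 0.161, 0.123, 0.0782 and 0.0954. Chek1 (1.28-fold, adjusted p = 0.0281) lost it without ∆G replicate 1 or 2 or null replicate 1 or 3 (up to 0.118), and Blm without ∆G replicate 1 or 2 or null replicate 1 or 2 (up to 0.0861). Fancl, Mre11a and Usp1 lost it without ∆G replicate 1 or 2 or null replicate 1 (up to 0.0603, 0.0546 and 0.0769), and Brip1 without ∆G replicate 2 (0.0511). Topbp1 was not called between the mutants: its difference was 0.25 (95% interval 0.07 to 0.44, adjusted p = 0.0951). With the sex pattern as a term in the limma fit, which leaves WT as the only group holding both patterns, 0 members were called between null and ∆G. The sex effect there rests on WT replicate 3 against the other WT arrays. In that fit the differences of the 21 members called in the main fit ran from 0.17 (Mre11a) to 1.05 (Fanca). Over all 19938 genes, that fit called 54 higher and 92 lower, against 851 and 886 in the main fit.

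Within a genotype, the same arrays were often the high ones. ∆G replicate 3 was the highest ∆G array for 29 of 37 genes and WT replicate 1 the highest WT array for 26, and the mean over the members was 7.07, 7.05 and 7.29 in ∆G and 6.95, 6.76 and 6.83 in WT. Markers of dividing cells, 9 genes such as Mki67, Cdk1, Plk1 and Aurkb, had means of 8.47, 7.76 and 7.84 in WT, 8.07, 7.95 and 8.77 in ∆G and 9.24, 9.04 and 9.0 in null. Their high arrays within WT and ∆G were the same ones. All 9 markers were called higher in null than in WT (median difference 1.05), while in ∆G 0 of 9 were called by limma and 0 had an unadjusted p below 0.05. Their ∆G differences were nevertheless all 9 above 0, with a median of 0.22 beside 0.23 for the members. The SEs of these marker differences were wide, at 0.18 to 0.26. More cells in cycle and more RNA per cell cannot be told apart in bulk RNA, and the part of cycling cells in the member differences was not tested. The rises of Tipin, Chek1, Topbp1, Timeless and Brca2 in ∆G were present without replicate 3, at log2 differences of 0.95, 0.96, 0.76, 0.69 and 0.70, each still called. Those 5 genes also exceeded every WT array on ∆G replicates 1 and 2. They were picked by their calls in ∆G, so this is no separate test.

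**Figure D4:**
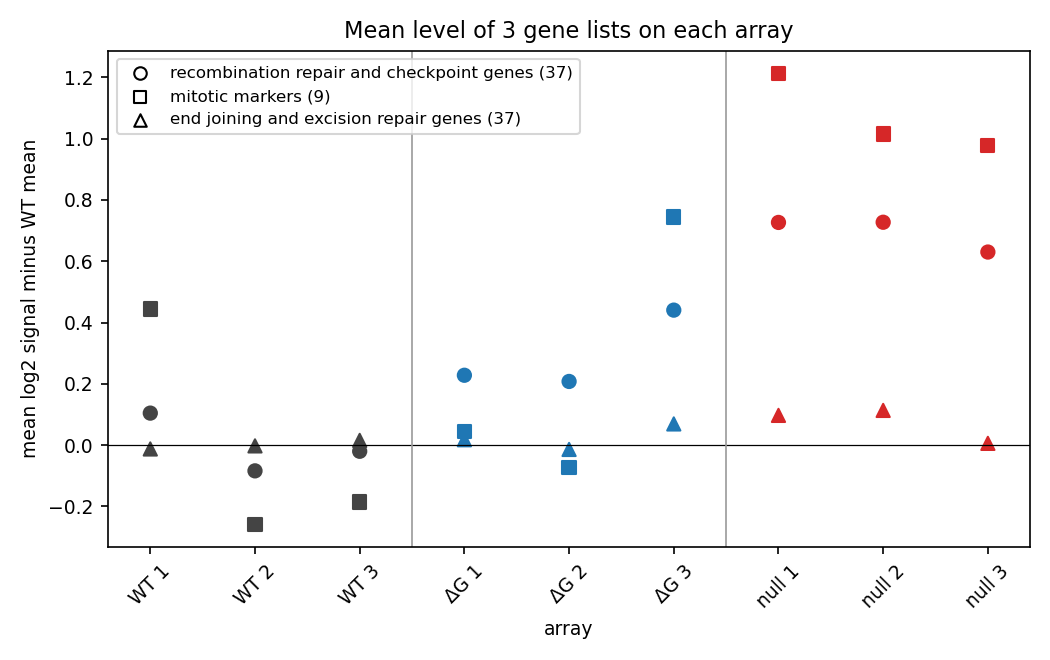
Mean log2 signal on each array, relative to the mean of the 3 WT arrays, of the 37 members (circles), 9 mitotic markers (squares) and 37 end joining and excision repair genes (triangles). ∆G replicates 1 and 2 are above all WT arrays for the members and within the WT range for the mitotic markers, and the triangles stay near 0 on all arrays.

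Promoter windows of 300 bases, from 250 before to 50 after the annotated start, were taken from RefSeq (GRCm38.p6) for 31 of the 37 genes. An E2F motif, counted as TTTCCCGC, TTTGGCGC, TTTCGCGC or TTTGCCGC on either strand, was present for 7 of the 31 (22.6%), against 2.6% of all 27025 genes in the table, 9.8% of 51 partner genes of the pathways and 6.67% of 30 end joining and excision repair genes. Of the members called in ∆G, 3 of 6 with a window held one (Brca2, Rad51c and Topbp1), and of those not called there, 4 of 25 did (Bard1, Chek2, Clspn and Fancg). The windows of Chek1, Timeless and Fancl held none of these letters, and Tipin was not in the table. The CHR motifs TTTGAA and TTCGAA were found for Atr, Bard1 and Eme1, 9.68% of members against 21.7% of all genes. These matches are descriptions of letters, not of bound sites.

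The windows of the 3 called genes with an E2F motif and of the 2 genes with the smallest null differences are printed to show where the motif lies, 5′ to 3′ along the gene, with the E2F motif in capitals. The first 3 were chosen for holding the motif, so its presence there and its absence from the other 2 is no contrast between genes that rose and genes that did not, and Chek1 and Timeless, called in ∆G at log2 differences of 1.00 and 0.75, held none. They lie at chr9:103305077-103305376 (plus strand) for Topbp1, chr5:150522371-150522670 (plus) for Brca2, chr11:87404457-87404756 (minus) for Rad51c, chr9:109074075-109074374 (minus) for Atrip and chr9:95857347-95857646 (plus) for Atr. Counted from the start, the motif lay at -129 to -122 in Topbp1 and at -168 to -161 in Brca2, in both on the opposite strand, and at 12 to 19 in this first of 2 windows of Rad51c.
Topbp1: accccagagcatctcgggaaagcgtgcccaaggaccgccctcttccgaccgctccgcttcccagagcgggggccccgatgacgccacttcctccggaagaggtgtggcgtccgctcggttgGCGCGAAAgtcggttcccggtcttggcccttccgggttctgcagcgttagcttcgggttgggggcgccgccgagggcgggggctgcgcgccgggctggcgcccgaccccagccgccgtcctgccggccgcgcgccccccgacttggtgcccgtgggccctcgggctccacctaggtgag
Brca2: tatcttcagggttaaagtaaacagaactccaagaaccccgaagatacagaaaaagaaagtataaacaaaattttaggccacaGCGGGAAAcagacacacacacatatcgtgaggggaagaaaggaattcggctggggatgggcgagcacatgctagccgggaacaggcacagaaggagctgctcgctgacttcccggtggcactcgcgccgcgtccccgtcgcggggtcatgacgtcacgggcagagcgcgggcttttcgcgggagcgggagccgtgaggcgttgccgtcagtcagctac
Rad51c: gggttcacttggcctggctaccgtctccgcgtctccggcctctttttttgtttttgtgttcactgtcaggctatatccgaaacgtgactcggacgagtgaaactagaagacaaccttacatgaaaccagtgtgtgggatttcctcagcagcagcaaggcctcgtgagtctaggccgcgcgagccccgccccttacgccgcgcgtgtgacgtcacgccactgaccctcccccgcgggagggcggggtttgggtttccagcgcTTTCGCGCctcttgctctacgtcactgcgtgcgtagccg
Atrip: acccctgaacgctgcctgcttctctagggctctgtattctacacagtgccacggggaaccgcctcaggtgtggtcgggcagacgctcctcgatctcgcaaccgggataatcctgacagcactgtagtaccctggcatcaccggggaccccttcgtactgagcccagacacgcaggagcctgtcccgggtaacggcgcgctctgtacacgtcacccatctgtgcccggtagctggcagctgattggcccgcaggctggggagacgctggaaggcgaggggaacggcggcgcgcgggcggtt
Atr: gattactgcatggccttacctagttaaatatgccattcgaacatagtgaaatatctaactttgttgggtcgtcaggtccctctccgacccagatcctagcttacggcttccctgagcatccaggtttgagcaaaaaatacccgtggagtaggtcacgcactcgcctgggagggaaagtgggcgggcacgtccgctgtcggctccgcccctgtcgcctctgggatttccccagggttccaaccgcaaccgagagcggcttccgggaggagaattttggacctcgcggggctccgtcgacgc

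Among the other genes of these pathways, most calls in null were rises and a few were falls. Of 63 measured partners, 32 were called higher and 4 lower in null than in WT, 5 higher and 0 lower in ∆G, and 19 higher and 1 lower in null than in ∆G. The shares called were 57.1%, 7.94% and 31.7%, against 18.4%, 0.813% and 8.71% of all genes. Over all genes, 10.1% were called lower in null than in WT. The median differences of the partners were 0.32, 0.08 and 0.19. The partners called between null and ∆G numbered 7 without ∆G replicate 1, 6 without ∆G replicate 2, 6 without null replicate 1, 8 without null replicate 2, and 2 with the sex pattern as a term. Calls over all genes fell in each of those fits as well. Rpa1 encodes the large subunit of the protein that coats single-stranded DNA. It was at 7.67, 7.54 and 7.61 in WT, 8.26, 8.23 and 8.32 in ∆G and 8.57, 8.64 and 8.41 in null, and rose 1.59-fold in ∆G (adjusted p = 0.00263) and 1.91-fold in null (adjusted p = 2.59e-05). Rpa3, the small subunit of the same complex, was at 6.58, 6.59 and 6.61 in WT, 6.79, 6.64 and 6.91 in ∆G and 7.87, 7.67 and 7.69 in null. It rose 2.22-fold in null (adjusted p = 1.47e-05), its ∆G difference of 0.19 was not called (adjusted p = 0.421), and null exceeded ∆G 1.95-fold (adjusted p = 0.00019).

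Tonsl and Mms22l encode a pair that acts at stalled forks. Tonsl was at 6.15, 5.89 and 6.02 in WT, 6.63, 6.76 and 6.84 in ∆G and 7.17, 7.35 and 7.21 in null, a rise of 1.65-fold in ∆G (adjusted p = 0.00359) and 2.34-fold in null (adjusted p = 1.4e-05). Mms22l rose 1.67-fold (adjusted p = 0.00667) and 2.5-fold (adjusted p = 1.47e-05). Fignl1, an ATPase, rose 1.88-fold in ∆G (adjusted p = 0.00587). Pcna, the sliding clamp of replication, was the fifth partner called in ∆G (1.78-fold, adjusted p = 0.0148), named after its value was seen, and lost that call without ∆G replicate 1 (adjusted p = 0.0636). Dna2, a nuclease of end resection, rose 2.75-fold in null (adjusted p = 1.9e-05), with a ∆G difference of 0.49 that was not called (adjusted p = 0.0906).

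The 4 partners that fell in null, named after their values were seen, were Ercc4 (-0.30), Trp53bp1 (-0.32), Sfr1 (-0.29) and Hltf (-0.34). Trp53bp1 encodes 53BP1, which shields broken ends from resection, and was at 8.08, 8.07 and 8.24 in WT, 8.0, 7.99 and 8.01 in ∆G and 7.78, 7.80 and 7.83 in null. Ercc4 lost its call without WT replicate 2 or 3, ∆G replicate 1 or 2, or null replicate 1 or 3, with an adjusted p of up to 0.162. Hltf lost its call without WT replicate 1 or 3 or null replicate 2 or 3, with an adjusted p of up to 0.0761. Hltf was also the partner called lower in null than in ∆G (-0.32), and leaving out any 1 array other than ∆G replicate 3 ended that call, with an adjusted p of up to 0.178. With the sex pattern as a term, which sets null against WT replicate 3 alone, Ercc4, Sfr1 and Hltf lost their calls against WT.

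Genes of end joining and excision repair, pathways that need no sister chromatid, were set beside the members. Of 37 measured, 8 were called higher and 4 lower in null than in WT, with a median difference of 0.05. That is 32.4% called, against 18.4% of all genes. In ∆G limma called 0, against 0.813% of all genes. There 12 of the 37 had an unadjusted p below 0.05, beside 17 of the 37 members and 2343 of all 19938 genes. Ung, the uracil glycosylase, was at 6.06, 6.10 and 6.18 in WT, 6.34, 6.40 and 6.43 in ∆G and 6.72, 6.79 and 6.74 in null. Its groups did not overlap, and it rose 1.55-fold in null (adjusted p = 0.000103). Parp1, the sensor of strand breaks, rose 1.27-fold (adjusted p = 0.00381), and Xpa, a damage verifier of nucleotide excision repair, fell by 0.39 on the log2 scale (adjusted p = 0.00273). With the sex pattern as a term, which sets null against WT replicate 3 alone, Parp1 and Xpa lost their calls in null against WT. Between null and ∆G 2 genes were called, both higher in null (5.41%, against 8.71% of all genes). They were Ung (1.28-fold, adjusted p = 0.00741) and Neil3, a glycosylase named after its value was seen (1.89-fold, adjusted p = 0.0234). Neil3 lost that call without ∆G replicate 1 or 2 or null replicate 1 or 3, with an adjusted p of up to 0.0987. The count was 1 without ∆G replicate 1, ∆G replicate 2 or null replicate 1, and 5 without ∆G replicate 3.

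**Figure D5:**
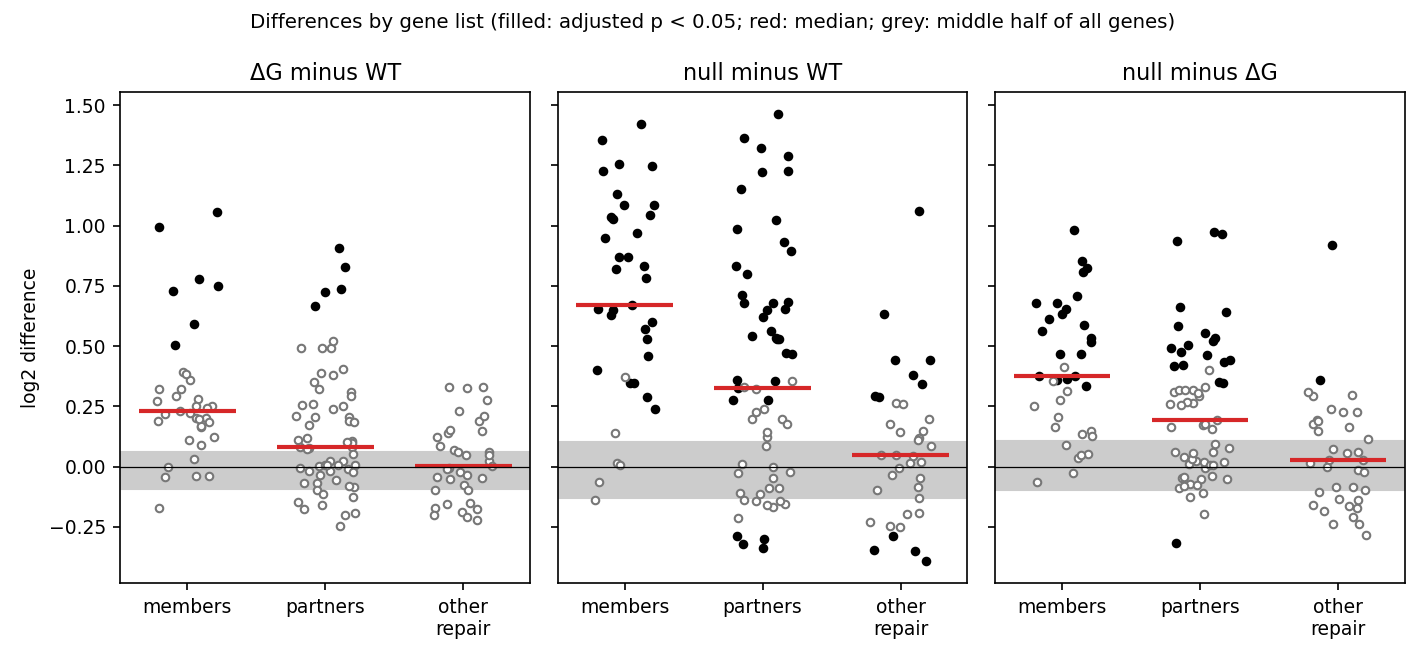
Log2 differences of the 37 members, 63 pathway partners and 37 end joining and excision repair genes in the 3 comparisons (filled points have an adjusted p below 0.05, red lines are medians, the grey band runs from the lower to the upper quartile of all genes). The medians of the members are 0.23, 0.67 and 0.37, and those of end joining and excision repair genes lie inside the grey band in every panel.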

How the data were processed

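RNA from 9 fibroblast cultures, 3 per genotype, was measured on Affymetrix Mouse Gene 1.0 ST arrays. The deposited values are on the log2 scale and were made by the authors with RMA in BRB-ArrayTools, per the labels' series text, and the submitters' processing notes list RMA and affy. Their versions, the annotation and the build were not given in the sources used here. RMA pulls array distributions together and compresses changes of dim genes. The precision is limited by how many arrays there are, and no detection call was applied.

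Of 35512 probe sets, 1 had no values and 21789 had exactly 1 symbol in the platform annotation (1621 had several, 12101 none), of which 21698 matched the RefSeq table by gene ID. For 999 genes with several probe sets the brightest was kept. All 9 arrays entered 1 limma fit (limma 3.58.1, R 4.3.3) with 6 residual degrees of freedom and default eBayes, which was tested on simulated data. The members, the partner list (63 of 66 measured), the list of other repair genes (37 of 41) and the tests were chosen with earlier results of these data known. Named were all members, Rb1, the 5 partners with the lowest p in null and the 3 in ∆G, and the 3 other repair genes with the lowest p in null. The 17 alternatives covered a filter on dim genes, probe set choice, scaling, the eBayes trend, the samples fitted, a replicate block, the sex pattern and leaving out each array. For ∆G against WT, the sex pattern term gave the same result as leaving out WT replicate 3, so it was no separate check there.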

Additional observations from a re-analysis of the deposited data

How the results depend on the processing

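With 3 arrays per group, small changes of dim genes could not be resolved. No member changed direction with a call in any of the 17 alternatives. Of the calls in the main comparisons, 5 of 7 in ∆G against WT (Brca2, Chek1, Timeless, Tipin and Topbp1) and 25 of 31 in null against WT were kept in every alternative, and 0 of 21 in null against ∆G, where the sex pattern coincides with the genotype. Of those 21, 10 kept their call when any 1 array was left out. With the sex pattern as a term, members, partners and other repair genes called in null against ∆G numbered 0, 2 and 0. The sex effect in that fit rests on WT replicate 3 against the other WT arrays, and differences of the 21 ran from 0.17 to 1.05. Over all genes 54 were called higher and 92 lower there, against 851 and 886 in the main fit. With the same term, 5 other repair genes, 27 members and 24 partners were called in null against WT. There 4 members lost their calls, Fancb, Fancg, Slx4 and Rad50, as did Xpa and Parp1. That comparison sets null against WT replicate 3 alone. Differences of the 4 members were 0.56, 0.41, 0.22 and 0.22, against 0.57, 0.35, 0.24 and 0.29 in the main fit. Leaving out 1 array gave 10 to 24 members, 6 to 28 partners and 1 to 5 other repair genes called in null against ∆G. It gave median member differences of 0.12 to 0.32 in ∆G, 0.64 to 0.79 in null and 0.34 to 0.47 between them, and 5 to 8 members called in ∆G and 27 to 32 in null. Over all genes, ∆G against WT had 51 genes called higher and 11 lower without WT replicate 2, and 143 and 109 without ∆G replicate 3, against 120 and 42. For null against ∆G the counts were 334 and 428 without ∆G replicate 1, and 1230 and 1178 without ∆G replicate 3, against 851 and 886. The series text describes litter pairs without saying which arrays share a litter. Correlations of same-numbered deviations ran from -0.08 to 0.27, not over 0.1 in every pair, so the numbers were not used as pairs and whether they mark litters was not settled. With the replicate block, 7, 31 and 20 members were called in the 3 comparisons, Tipin being lost between null and ∆G (adjusted p = 0.068), and Rb1 passed in ∆G against WT (adjusted p = 0.0225).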
